A study of Mus musculus with 26 samples.

Results

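The comparison described here is between mesenteric arteries of angiotensin II-infused mice that lack Sphk1 in smooth muscle and those of infused mice with intact Sphk1. It was defined by the labels alone: the 5 libraries titled as hypertensive smooth muscle knockout were set against the 4 titled as hypertensive flox/flox, 9 of the 26 libraries in the series. Sphk1 encodes sphingosine kinase 1, which phosphorylates sphingosine to sphingosine-1-phosphate (S1P), a lipid that acts inside cells and, after export, on the G protein-coupled receptors S1pr1 to S1pr5. A second kinase, Sphk2, makes the same product, while the lyase Sgpl1 and lipid phosphatases remove it. Mesenteric arteries are small muscular arteries that set resistance to blood flow in the gut; their smooth muscle contracts when angiotensin II (AngII) binds its receptor, and S1P receptors on smooth muscle and endothelium change tone in opposite directions.

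Both groups were male C57BL6J mice carrying floxed Sphk1 alleles on both chromosomes. The knockout group (Sphk1f/fTagln-cre+, called KO here, n = 5) also carried Cre recombinase under the promoter of Tagln (SM22α), a gene of smooth muscle, and the control group (Sphk1f/fTagln-cre-, called WT here, n = 4) did not. Both received AngII at 490 ng/kg/min for 14 days from subcutaneous osmotic minipumps, started at 12 to 14 weeks of age. A sham group without Cre (n = 4) entered the same fit. No knockout group without AngII is among the libraries, so an effect of the deletion itself and an effect on the response to AngII cannot be told apart. Cre acts in any cell that has used the Tagln promoter, the floxed exons are not named in the labels, and no group carries Cre without floxed alleles. Poly(A) RNA was sequenced from whole vessels, in which fewer cells of a type and less RNA per cell cannot be told apart. Counts assigned to genes came to between 17.54 M and 30.05 M per library over the 9 libraries. The extraction protocol gives as many mice as libraries in each group but ties no library to a mouse, and p-values measure the spread between these libraries.

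Smooth muscle and endothelial markers were present at high levels in every library. Levels are given in CPM, read counts scaled to the size of each library after TMM correction for its composition. Myh11, the smooth muscle myosin heavy chain, was at 8513 to 12370 CPM in the WT libraries and 6138 to 12705 CPM in the KO libraries. The mean log2 CPM of 16 smooth muscle markers ranged from 9.88 to 10.35 in WT and from 9.39 to 10.33 in KO, with KO replicate 3 the lowest. The 12 endothelial markers ranged from 7.28 to 7.41 in WT and from 6.80 to 7.52 in KO, with KO replicate 4 the lowest.

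RNA of lymphoid and pancreatic marker genes differed between libraries far more than the wall markers did, and it did so within both groups. Whether the lymphoid RNA came from neighbouring tissue or from cells of the vessel was not tested. The mean log2 CPM of 12 B cell markers was 3.87, 0.48, -0.35 and -0.02 in WT replicates 1 to 4 and 2.99, 1.04, 6.04, 0.18 and 2.67 in KO replicates 1 to 5. KO replicate 3 and WT replicate 1 led, and the 16 T and NK cell markers kept these 2 libraries on top, at 4.02 and 2.16. Pancreatic acinar markers (17 genes of digestive enzymes) were at -0.20, 3.00, 1.48 and 11.76 in WT and at 1.72, 9.93, 4.31, 5.25 and 11.18 in KO. WT replicate 4 and KO replicates 5 and 2 thus carried acinar RNA at a level typical of abundant transcripts, and WT replicate 1 almost none.

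Marker genes of the gut wall stood out in further libraries, and their source was not tested. Olfm4, a gut epithelial gene, stood at 402 CPM in WT replicate 2 and at no more than 5.36 CPM in the other 8 libraries. Tubb3, a neuronal tubulin, stood at 60.1 CPM in KO replicate 4 and at 1.67 to 7.42 CPM elsewhere. Kit, which marks interstitial cells of Cajal and mast cells, was at 78.0 CPM in that same library and at 3.07 to 18.7 CPM in the others. Actg2, the actin of visceral smooth muscle, was at 4473 CPM there against 621 to 1231 CPM. KO replicate 4 was therefore the library with the highest level for each of these nerve, interstitial and visceral muscle genes.

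**Figure D1:**
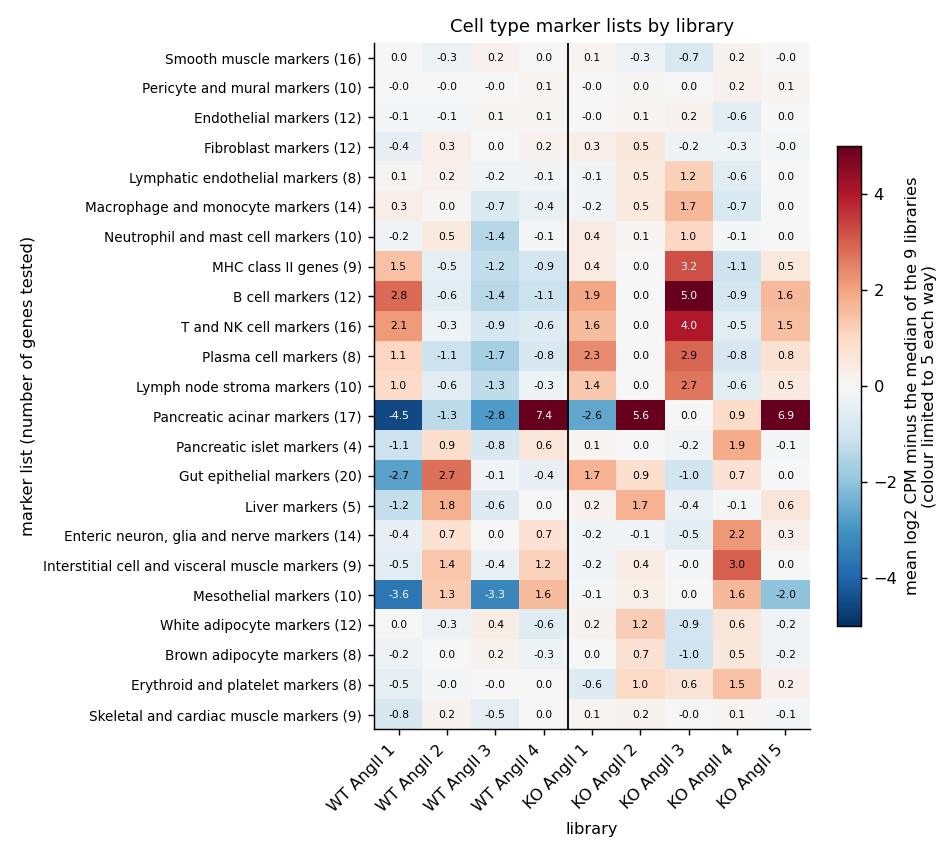
Each cell is the mean log2 CPM of a marker list (rows, number of genes in brackets) in a library (columns), minus the median of the 9 libraries; red is above and blue below. The B cell, T and NK cell and MHC class II rows are highest in KO replicate 3 and WT replicate 1. The plasma cell and lymph node stroma rows are highest in KO replicates 3 and 1. The acinar row is highest in WT replicate 4 and KO replicates 5 and 2, and the interstitial and visceral muscle row in KO replicate 4.

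To separate vessel wall genes from these marker groups, genes were sorted into classes by how they followed the marker lists within groups. The difference between KO and WT was not used. A gene was lymphoid where its deviations from the group means correlated at r of at least 0.7 with B, T and NK cell markers (1073 genes), and gut and pancreas where they did so with acinar and gut epithelial markers (231 genes). Of the remaining genes, those with a mean of at least 1 CPM in the aortic libraries were classed as wall (13327 genes, 76.1% of those tested), and 2882 were left as other. All 17 acinar markers fell in the gut and pancreas class, but only 1 of 20 gut epithelial markers did, with 17 in other and 2 in wall. The gut and pancreas class thus followed acinar RNA, and most gut epithelial markers were left outside it. Wall genes in this sense can still include genes of fat, nerve and blood that an aorta also carries, such as Tubb3 and Kit. Lymphoid genes made up 7.63% of counts in KO replicate 3, 3.03% in WT replicate 1 and 1.17 to 2.23% in the other 7 libraries. Gut and pancreas genes made up 13.8% in WT replicate 4, 9.67% in KO replicate 5, 4.57% in KO replicate 2 and at most 0.526% in the rest. In KO replicates 2, 3 and 4 and WT replicate 1, 11.43 to 14.7% of records were not aligned, against at most 1.40% in the other 5 libraries.

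Sphk1 fell in the KO arteries and was the only gene of 17513 that passed the test. Its level was 14.4, 17.8, 13.6 and 9.84 CPM in the WT libraries and 2.89, 4.76, 4.94, 3.26 and 3.74 CPM in the KO libraries. All 5 KO libraries lay below all 4 WT libraries, and also below the sham libraries, which held 7.43 to 9.42 CPM. The group means were 13.9 ± 3.27 CPM in WT (SD, n = 4) and 3.92 ± 0.904 CPM in KO (SD, n = 5), so that KO held 28.2% of the WT level. The fall was 1.83 ± 0.20 on the log2 scale (SE; 95% interval -2.25 to -1.40; adjusted p = 0.0101, edgeR quasi-likelihood test). An exact two-sided permutation test over every regrouping of the 9 libraries gave p = 0.00794, the smallest it can give. The log2 fold change stayed between -2.04 and -1.68 in each of 28 alternatives, but the adjusted p, which ranged from 5.08e-14 to 0.267 (edgeR, limma or DESeq2), was 0.05 or above in 8 of them. Among those were the fits without WT replicate 1 (0.0635), without WT replicate 3 (0.0534), without KO replicate 5 (0.0653) and of the 9 libraries alone (0.262).

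**Figure D2:**
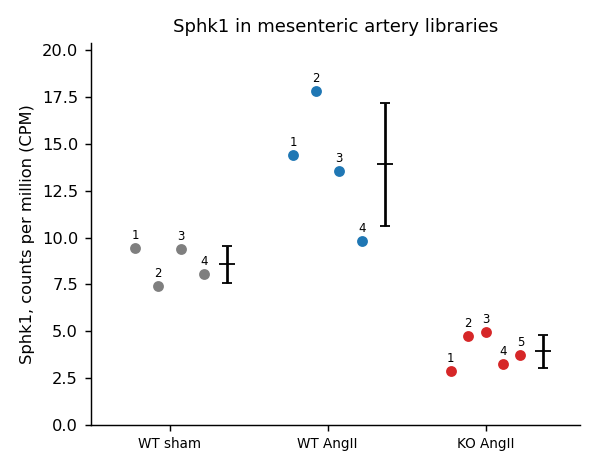
Sphk1 in CPM in each mesenteric library (points, numbered by replicate) with the group mean and SD (black). The 5 KO libraries lie between 2.89 and 4.94 CPM, below the lowest WT AngII library at 9.84 CPM.

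No gene was called higher and 1 was called lower by edgeR at an adjusted p below 0.05, which is 0.00571% of the genes tested. An unadjusted p below 0.05 was reached by 872 genes, 4.98% of those tested, where 876 would be expected if no gene differed. The smallest adjusted p after that of Sphk1 was 0.798. By DESeq2, 1 gene was called higher, Kcnj15 (adjusted p = 0.0445), and 1 lower, Sphk1. The KO and WT libraries did not overlap for 289 genes (1.65% of those tested), 107 higher in KO (0.611%) and 182 lower (1.04%). Of the 182 lower genes, 98 had their lowest KO value in replicate 3, the library richest in lymphoid RNA, and of the 107 higher genes 46 had their highest value there. In this edgeR fit every gene named below other than Sphk1 had an adjusted p of 0.798 or more, so it is given by its values; where another fit called a gene, that fit is named.

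The classes differed in how closely the data limit a change. Lymphoid and gut and pancreas genes were chosen for following marker levels that varied within groups. Their wide errors and the overlap of their groups follow from that choice. For wall genes the median log2 fold change was 0.004, the median SE 0.125, and 92.0% had a 95% interval that lay wholly within a 2-fold change in either direction. Only 98 wall genes, 0.735%, had an estimate of 2-fold or more. Lymphoid genes had a median of 0.92 with a median SE of 0.65. An estimate of 2-fold or more was found for 46.7% of them, and the groups were apart for 1 of 1073. The lymphoid median was 0.001 without KO replicate 3 and 1.46 without WT replicate 1. With the lymphoid marker level as a covariate it was -0.10, but that level also defines the class, so a median near 0 follows. Gut and pancreas genes had a median of -0.30 with a median SE of 1.03, and the groups were apart for none of 231 (1.65% over all genes). Without WT replicate 4 that median was 0.89. The wall median lay between -0.015 and 0.032 under every alternative. Wall genes were 76.1% of those tested, so scaling between libraries holds their median near 0. That median therefore cannot show a shift shared by the wall genes.

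**Figure D3:**
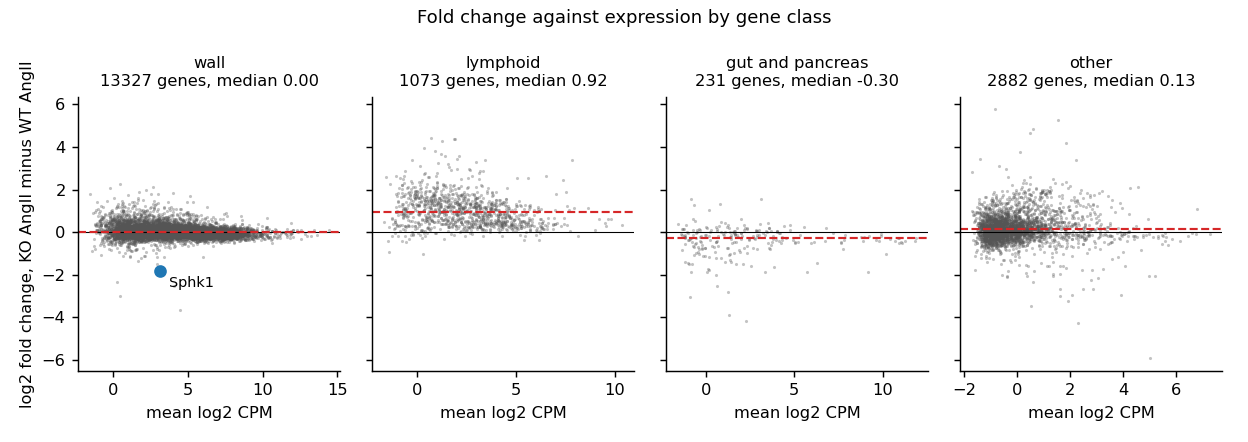
Log2 fold change of KO against WT under AngII (vertical) against mean log2 CPM (horizontal), 1 point a gene, in the 4 gene classes; dashed red lines are class medians. Wall genes lie close to 0 with Sphk1 at -1.83, while lymphoid genes are centred on 0.92.

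Of the 12 genes that make, export or break down S1P, 1 was called lower, Sphk1 itself, and the median of the list was 0.05 beside 0.02 for all genes tested. Sphk2, the other sphingosine kinase, was at 28.6, 27.8, 31.2 and 29.8 CPM in WT and at 28.4, 26.1, 29.7, 30.6 and 29.8 CPM in KO. The groups overlapped throughout, and the log2 fold change was -0.02 ± 0.08 with a 95% interval of -0.19 to 0.15. Sgpl1, the lyase that degrades S1P irreversibly, gave 0.28 ± 0.24, and its highest value by far, 97.1 CPM, was in KO replicate 3 against 38.0 to 58.4 CPM in the other 8 libraries. Spns2, an S1P exporter of endothelium, gave 0.32 ± 0.29 and was classed as lymphoid. These 3 genes were picked for their role after their values were seen.

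Of the 13 receptors for S1P and its relative lysophosphatidic acid (LPA), 10 could be tested, none was called, and 7 were above 0, with a median of 0.16. S1pr1, the main receptor of endothelium, was named for its role after its values were seen, at 140 ± 12.4 CPM in WT and 151 ± 26.6 CPM in KO (SD), a log2 fold change of 0.11 ± 0.12. S1pr3, which promotes contraction in smooth muscle, gave -0.26 ± 0.17, and S1pr2, another S1P receptor of the vessel wall, gave -0.18 ± 0.12. Lpar2, an LPA receptor, gave 0.77 ± 0.45, with KO replicate 3 at 4.38 CPM and the other 8 libraries at 0.757 to 1.5 CPM.

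The 25 tested enzymes of ceramide and sphingomyelin had a median of 0.02, and 3 reached an unadjusted p below 0.05 (4.98% over all genes). Sgms2, a sphingomyelin synthase of the plasma membrane, was at 28.8, 45.8, 31.3 and 29.9 CPM in WT and at 24.1, 24.5, 16.6, 21.3 and 27.5 CPM in KO. Its groups did not overlap, with WT replicate 2 the highest and KO replicate 3 the lowest, and the log2 fold change was -0.58 ± 0.16. Cerk, which phosphorylates ceramide, gave 0.33 ± 0.14, and Degs2, a dihydroceramide desaturase, gave -0.78 ± 0.34, both with overlap between the groups. Degs2 was at 13.1 CPM in WT replicate 2 and at 4.79 to 6.30 CPM in the other WT libraries, and without WT replicate 2 it gave -0.37.

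Among genes whose KO libraries all lay above the WT libraries, the 12 named genes of smallest unadjusted p held 8 wall genes and 4 other-class genes. Kcnj15, an inwardly rectifying potassium channel, was at 3.90, 3.49, 4.43 and 5.92 CPM in WT and at 15.2, 8.89, 10.8, 7.32 and 7.31 CPM in KO. KO replicate 1 was the highest and the nearest values were 5.92 and 7.31 CPM. Its log2 fold change was 1.16 ± 0.24, with 0.95 to 1.33 when 1 library was left out, and this was the gene that DESeq2 called. In the aorta the same contrast gave 1.08 ± 0.37 for Kcnj15, with an adjusted p of 0.981 in edgeR.

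Psrc1, a microtubule-binding protein and p53 target, was at 3.73, 2.22, 3.75 and 2.32 CPM in WT and at 7.45, 8.0, 4.04, 5.07 and 6.62 CPM in KO. Its log2 fold change was 1.05 ± 0.24, although KO replicate 3 lay close to the upper WT libraries. Sesn2, a stress-induced inhibitor of mTORC1 signalling, was at 6.90, 7.28, 4.71 and 7.66 CPM in WT and at 8.60, 11.3, 12.9, 9.30 and 8.90 CPM in KO. It gave 0.62 ± 0.16, with WT replicate 3 the lowest library. Scand1, a SCAN domain protein, gave 0.49 ± 0.12, Dglucy, a mitochondrial D-glutamate cyclase, 0.40 ± 0.10, and Pepd, a dipeptidase that recycles proline, 0.32 ± 0.09. Hmces, which shields abasic sites in DNA, and Abhd17a, a depalmitoylating enzyme, each gave 0.25. The other-class genes Cenps, Alpk2, B3gnt7 and Spin2c, each with a mean below 2 CPM in both groups, gave 1.38, 1.24, 1.30 and 1.11.

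The genes of smallest unadjusted p whose KO libraries all lay below the WT libraries, apart from Sphk1, included channels, receptors and chromatin proteins. Tmem38b, which encodes the cation channel TRIC-B of intracellular calcium stores, was at 145, 105, 129 and 115 CPM in WT and at 88.7, 76.0, 53.6, 82.9 and 92.9 CPM in KO. KO replicate 3 was the lowest, and the log2 fold change was -0.65 ± 0.16. Bmpr2, the type II receptor for bone morphogenetic proteins, was at 248, 227, 238 and 213 CPM in WT and at 206, 202, 156, 179 and 185 CPM in KO. It gave -0.32 ± 0.08, again with KO replicate 3 lowest. Bicral, a subunit of a SWI/SNF chromatin complex, was tight in KO at 37.2 to 39.8 CPM against 43.5 to 50.3 CPM in WT, and gave -0.28 ± 0.07. Corin, a protease that activates natriuretic peptides, gave -0.62 ± 0.17, at 46.6 to 59.4 CPM in WT and 29.1 to 43.6 CPM in KO. Abcb1a, a drug efflux pump of endothelium, Fign, a microtubule-severing protein, Bahcc1, Heca, Prune1, Pcm1, a centriolar satellite protein, and Bcor, a transcriptional corepressor, lay between -0.37 and -0.22.

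**Figure D4:**
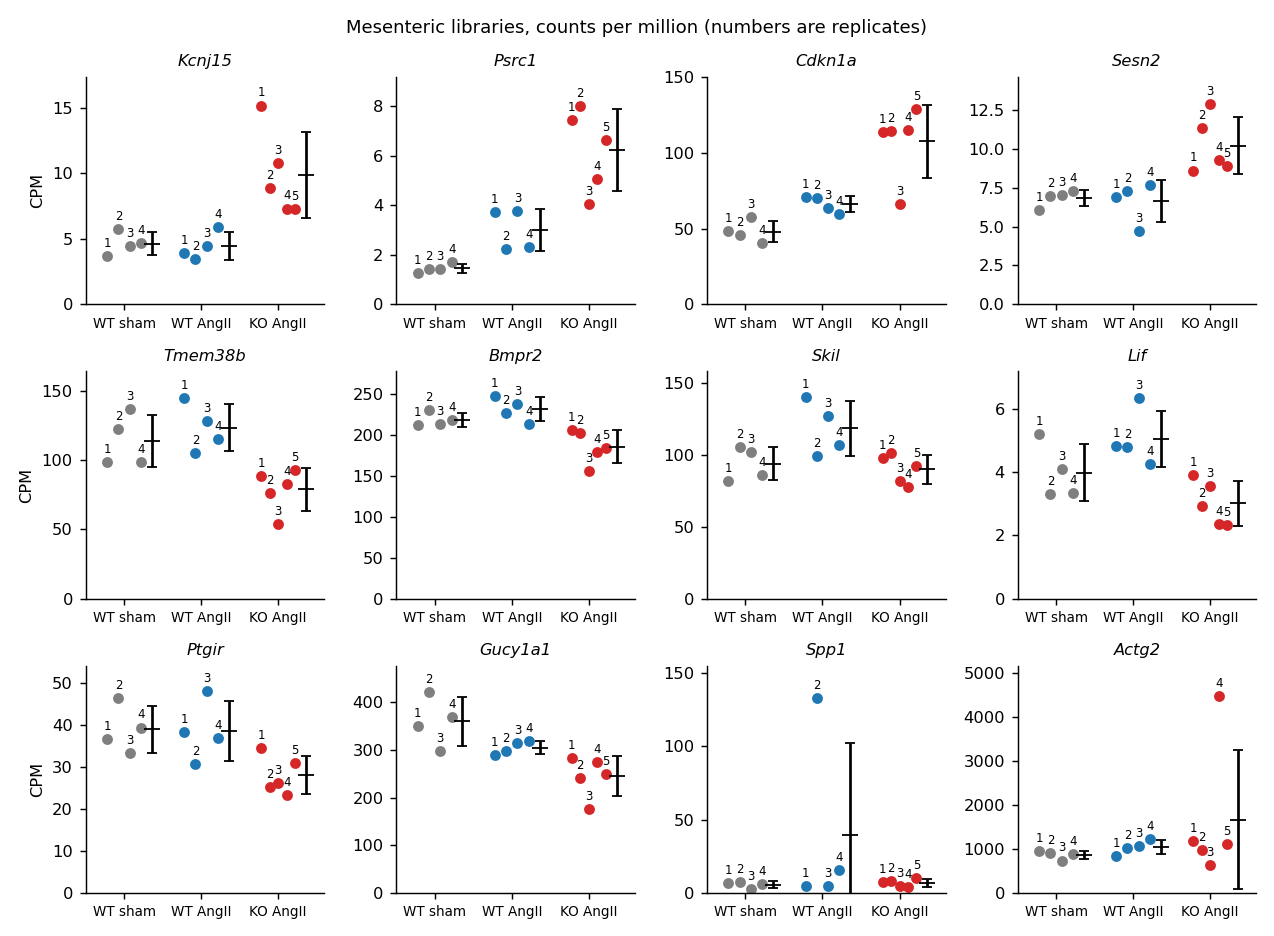
CPM in each mesenteric library (points, numbered by replicate) with the group mean and SD, for 12 genes named in the text. KO lies apart from WT for Kcnj15, Psrc1, Sesn2, Tmem38b, Bmpr2, Lif and Gucy1a1, while Spp1 and Actg2 are each set by 1 library.

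Contractile genes of smooth muscle were not called in either direction. Of 28, 9 were above 0 and the median was -0.08, and 25 had an interval within 2-fold. Acta2, smooth muscle actin, was at 14375, 10040, 14665 and 12933 CPM in WT and at 14150, 10706, 7606, 12711 and 14228 CPM in KO, so that only KO replicate 3 lay below the WT range. Tagln, the gene whose promoter drives Cre, held 5537 to 9090 CPM in WT and 4754 to 9130 CPM in KO. Mrtfa, a coactivator of serum response factor, gave 0.39 ± 0.18, with KO replicate 3 at 61.0 CPM and WT at 27.3 to 34.2 CPM.

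Receptors and enzymes that set vascular tone were also without a call. Of 36 receptors for vasoconstrictors and vasodilators, 2 reached an unadjusted p below 0.05 (4.98% over all genes), with a list median of -0.03. Ptgir, the receptor for the dilator prostacyclin, was at 38.2, 30.6, 47.9 and 36.8 CPM in WT and at 34.5, 25.1, 26.1, 23.3 and 30.9 CPM in KO. KO replicates 1 and 5 lay above WT replicate 2, and the log2 fold change was -0.46 ± 0.15. Ednra, the endothelin receptor of smooth muscle, gave -0.30 ± 0.13, and Adora2a, an adenosine receptor, gave 0.64 ± 0.30. Of 19 genes of nitric oxide and cGMP signalling, 1 had groups apart (1.65% over all genes): Gucy1a1, a subunit of the nitric oxide receptor guanylate cyclase. It was at 289, 297, 315 and 319 CPM in WT and at 282, 241, 176, 274 and 250.0 CPM in KO, lowest in KO replicate 3, with a log2 fold change of -0.32 ± 0.13. Pde1a, which degrades cGMP and cAMP, gave -0.30 ± 0.12. Among 18 renin-angiotensin and RGS genes, Rgs7bp, which tethers regulators of G protein signalling, gave -0.46 ± 0.19.

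No potassium or calcium channel gene was called. Kcna5, a voltage-gated potassium channel of resistance artery muscle, was at 103, 67.0, 110.3 and 86.7 CPM in WT and at 70.7, 56.8, 46.8, 58.1 and 90.2 CPM in KO, with overlap and a log2 fold change of -0.51 ± 0.20. Kcnq1, another potassium channel, gave -1.15 ± 0.48, but WT replicate 2 alone held 28.3 CPM while the other 8 libraries held 3.26 to 7.66 CPM. Without that library Kcnq1 gave -0.17 ± 0.29. The same library had the highest level of the gut epithelial gene Olfm4, and a link between these values was not tested. Itpr1, the inositol trisphosphate receptor that releases stored calcium, gave -0.25 ± 0.11, and Trpm4, a calcium-activated cation channel that depolarises smooth muscle, gave -0.27 ± 0.13. The potassium channel list had a median of -0.13 over 22 genes, with members from -1.15 to 2.05, and the calcium list -0.11 over 29, with members from -0.34 to 0.87.

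No fibrillar collagen passed the test. Of the 10 tested, 9 were below 0, with a median of -0.05 and a range of -0.12 to 0.02, and 9 had an interval within 2-fold. Col1a1, the main chain of type I collagen, was at 1238, 1285, 1268 and 1169 CPM in WT and at 1130, 1689, 862, 1039 and 1089 CPM in KO, a log2 fold change of -0.09 ± 0.20. Sham arteries held 694 to 1198 CPM. KO replicate 2 lay above the narrow WT range and the other 4 KO libraries below it. Basement membrane genes, which encode the laminins, type IV collagens and their linkers around smooth muscle and endothelium, had 18 of 23 members below 0 and a median of -0.22, the lowest of the biological lists. None was called, and none had groups apart where 1.65% of all genes did. Col4a5, a type IV collagen chain, gave -0.31 ± 0.16, Lama5, a laminin chain, -0.32 ± 0.18, and Agrn, a heparan sulphate proteoglycan, -0.23 ± 0.12. KO replicate 3 was the lowest KO library for each of these 3, and the list median ranged from -0.28 to -0.12 when 1 library was left out and was -0.08 at the highest over all alternatives.

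Tnc, tenascin C of remodelling arteries, was at 208, 125, 155 and 116 CPM in WT and at 168, 169.9, 366, 284 and 173 CPM in KO, against 58.9 to 94.3 CPM in sham. The KO and WT libraries overlapped, and the log2 fold change was 0.62 ± 0.26, or 0.41 ± 0.23 without KO replicate 3. Ltbp2, a microfibril protein, gave 0.38 ± 0.16, and Col12a1, a collagen that coats fibrils, -0.16 ± 0.09. Both rose in WT AngII against sham, by 1.44 ± 0.17 and 1.21 ± 0.10 (adjusted p = 0.00642 and 0.000456, edgeR). Spp1, osteopontin, had the largest value in this list, -2.54 ± 0.86, from 4.67, 133, 4.86 and 15.3 CPM in WT and 7.36, 7.89, 4.77, 3.79 and 10.2 CPM in KO. That difference rested on WT replicate 2, and without it the value was -0.27 ± 0.47. Col19a1 gave -0.49 ± 0.19, Plod2, a collagen lysyl hydroxylase, -0.28 ± 0.15, Ccn4, a matricellular Wnt target, -0.34 ± 0.15, and Adamts15, a metalloprotease, -0.41 ± 0.18.

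In the TGF-beta and BMP list, 27 of 38 genes were below 0 with a median of -0.07, and 8 reached an unadjusted p below 0.05 (4.98% over all genes). Skil, a corepressor induced by TGF-beta, was at 141, 99.0, 127 and 107 CPM in WT and at 97.6, 101, 81.6, 77.5 and 92.4 CPM in KO. Only KO replicate 2 lay above the lowest WT library, and the log2 fold change was -0.40 ± 0.12. Smad6, an inhibitory SMAD of endothelium and smooth muscle, gave -0.57 ± 0.21 with overlap. Growth factor genes had a median of -0.11 over 39 members, 5 with an unadjusted p below 0.05 (4.98% over all genes). Fgf2, basic fibroblast growth factor, was at 182, 149, 197 and 162 CPM in WT and at 149, 144, 102, 116 and 148 CPM in KO, and gave -0.39 ± 0.12. The WT minimum and the KO maximum lay together near 149 CPM. Angpt1, the Tie2 ligand made by mural cells, gave -0.34 ± 0.13 with groups apart, and Btc, an EGF receptor ligand, -0.34 ± 0.13. Tek, which encodes the Tie2 receptor, gave -0.26 ± 0.13.

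Genes of the actin cytoskeleton and adhesion had 30 of 38 members below 0 and a median of -0.13, with 4 at an unadjusted p below 0.05 (4.98% over all genes). The median was -0.06 without KO replicate 3, -0.08 without WT replicate 3 and 0.02 without KO replicates 2 to 4 and WT replicate 1. Rock2, a kinase that sustains smooth muscle contraction, was at 361, 321, 365 and 328 CPM in WT and at 286, 312, 231, 274 and 296 CPM in KO. Its groups did not overlap, and the log2 fold change was -0.30 ± 0.10. Itgav, the integrin αv chain, gave -0.26 ± 0.10, and Tmsb10, which binds monomeric actin, gave 0.69 ± 0.27 with KO replicate 3 highest at 213 CPM. Notch and Wnt genes had a median of -0.14, with 24 of 36 below 0. Jag1, a Notch ligand, gave -0.41 ± 0.16, Heyl, a Notch target of smooth muscle, -0.51 ± 0.20, and Notch3, the receptor of arterial smooth muscle, -0.41 ± 0.19. All 3 overlapped between the groups: Notch3 was at 274 to 413 CPM in WT and at 222 to 336 CPM in KO. Sfrp2, a secreted Wnt modulator, gave 0.79 ± 0.29, and Pdgfrb, the PDGF receptor of mural cells, -0.30 ± 0.14.

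**Figure D5:**
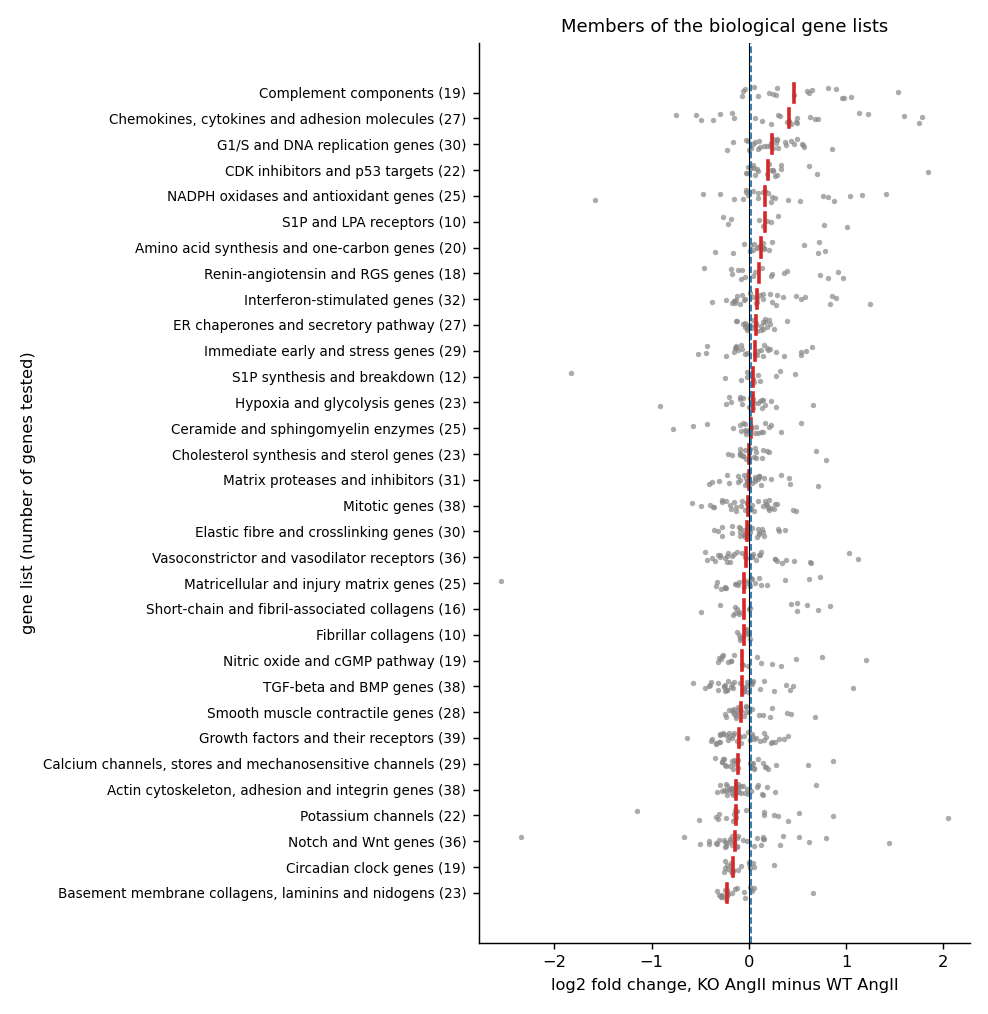
Log2 fold change of each tested member (points) of the biological gene lists, with the list median (red bar) and the median of all genes tested (dashed blue line at 0.02). List medians run from -0.22 for basement membrane genes to 0.47 for complement, and the only called gene is Sphk1, the point at -1.83 in the S1P list.

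CDK inhibitors and p53 targets stood above 0 in 19 of 22 cases, with a median of 0.20 and 4 members at an unadjusted p below 0.05 (4.98% over all genes). The median was 0.09 without KO replicate 4. Cdkn1a, which encodes the CDK inhibitor p21, was at 71.2, 70.2, 63.7 and 59.8 CPM in WT and at 114, 115, 66.2, 115 and 129 CPM in KO. KO replicates 1, 2, 4 and 5 lay above every WT library, and KO replicate 3 lay among the WT libraries. The log2 fold change was 0.70 ± 0.17 with an adjusted p of 0.798 in edgeR. Without KO replicate 3, Cdkn1a rose by 0.84 ± 0.10 with an adjusted p of 0.0243, and without KO replicates 2 to 4 and WT replicate 1, whose unaligned share was above 10%, it rose by 0.93 ± 0.13 with an adjusted p of 0.0298, both in edgeR. Over all 28 alternatives its adjusted p ranged from 0.0243 to 0.973 and its log2 fold change from 0.62 to 0.93. Those 2 fits, both without the KO library that lay among the WT libraries, were the only ones that called Cdkn1a, and 26 did not. Among the 26 was the fit without KO replicate 3 and WT replicate 1 together. Bax, a pro-apoptotic BCL2 family member, gave 0.27 ± 0.08 and overlapped at a single WT library. Mdm2, the p53-induced ubiquitin ligase, gave 0.02 ± 0.08 and was picked after its value was seen.

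No proliferation gene was called between KO and WT. The 38 mitotic genes had a median of -0.01 between KO and WT, while their median between WT AngII and sham was 1.69. Pbk, a mitotic kinase, was at 4.40, 4.55, 3.63 and 3.52 CPM in WT, at 3.02, 3.83, 2.21, 2.38 and 1.98 CPM in KO and at 0.519 to 0.952 CPM in sham, which gave -0.58 ± 0.25 for KO against WT. Hmmr, a spindle protein, gave -0.49 ± 0.31 and Iqgap3, a scaffold of dividing cells, -0.40 ± 0.24. The WT and KO values both lay above sham for these genes. Of 30 genes of the G1/S transition and DNA replication, 26 were above 0 with a median of 0.24, which was -0.03 without KO replicate 3 and 0.14 to 0.32 when any other library was left out. Tyms, thymidylate synthase, gave 0.25 ± 0.09 and Ccne1, cyclin E1, 0.86 ± 0.38.

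Stress, antioxidant and inflammatory genes gave values in both directions. Egr1, an immediate early transcription factor, was at 188, 168, 138 and 169.9 CPM in WT and at 148, 111, 70.5, 116 and 133 CPM in KO, a log2 fold change of -0.52 ± 0.17. WT replicate 3 fell within the KO range. Myc gave 0.65 ± 0.23. Hmox1, heme oxygenase 1 of macrophages and stressed vessels, was at 13.4, 15.7, 8.57 and 10.2 CPM in WT and at 14.5, 26.4, 35.7, 14.1 and 14.5 CPM in KO. It gave 0.81 ± 0.30, and 0.55 ± 0.24 without KO replicate 3, which also led the macrophage markers at a mean log2 CPM of 6.53. Cat, catalase, and Gpx4, which reduces lipid peroxides, gave 0.22 ± 0.08 and 0.23 ± 0.09. Lif, an IL6 family cytokine, was at 4.84, 4.79, 6.34 and 4.28 CPM in WT and at 3.92, 2.94, 3.58, 2.35 and 2.32 CPM in KO, with groups apart and -0.74 ± 0.21. Il1b gave 1.60 ± 0.80. Aldh1l1, a folate enzyme, had groups apart and gave 0.71 ± 0.30, at 9.33 to 10.1 CPM in WT and 12.9 to 24.7 CPM in KO, with KO replicate 2 the highest. Clock gave -0.17 ± 0.07 in a circadian list with 14 of 19 members below 0.

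Among the 4 classes lymphoid genes had the median fold change farthest from 0, and their group means were set by few libraries. All 12 B cell markers, all 16 T and NK cell markers and all 9 MHC class II genes were above 0, with medians of 1.92, 1.60 and 1.21, and none was called or had groups apart (1.65% over all genes). Cd79a, a subunit of the B cell receptor, was at 20.2, 1.95, 1.16 and 0.98 CPM in WT and at 12.9, 2.75, 97.5, 2.59 and 8.98 CPM in KO. Igha, the constant region of IgA, was at 184, 11.2, 8.25 and 4.19 CPM in WT and at 1421, 9.67, 1184, 26.6 and 107 CPM in KO. Madcam1, an addressin of mucosal lymphoid vessels, was at 3.06, 0.342, 0.279 and 0.267 CPM in WT and at 9.02, 0.372, 21.7, 0.571 and 5.20 CPM in KO. In each of these genes KO replicates 1, 3 and 5 and WT replicate 1 were the 4 highest libraries.

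When the 4 libraries with an unaligned share above 10% were left out, 2 KO libraries (replicates 1 and 5) faced 3 WT libraries (2, 3 and 4). In that fit edgeR called 56 of 17868 genes higher, of which 54 were lymphoid, 1 was other and 1, Cdkn1a, was wall. Lymphoid genes were 6.13% of those tested in the main fit. They were grouped for following 1 marker level, so these calls are not separate results. Sphk1 was the 1 gene called lower there, at -2.04 ± 0.26 (adjusted p = 0.0229). The 4 libraries left out hold 3 KO libraries and 1 WT library, too few for a value of their own, and none was computed. The B cell marker median was 0.005 without KO replicate 3 and 4.16 without WT replicate 1. For macrophage markers 12 of 14 were above 0, for complement genes 16 of 19 and for chemokines and cytokines 20 of 27, with medians of 0.74, 0.47 and 0.42. Without KO replicate 3 these medians were 0.03, 0.10 and 0.03. With the lymphoid marker level as a covariate they were 0.03, 0.09 and 0.01, and with the gut and pancreas level added they were -0.20, -0.11 and -0.15. In these 3 lists 8, 6 and 9 genes were of the lymphoid class, which that marker level defines. Part of the fall towards 0 thus follows from the choice of covariate, and the source of this RNA was not tested.

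Pancreatic genes varied over orders of magnitude within each group. Cpb1, carboxypeptidase B of acinar cells, was at 10.7, 24.3, 13.9 and 9793 CPM in WT and at 11.8, 2507, 52.6, 81.6 and 5877 CPM in KO, and sham arteries held 8.40 to 4020 CPM. The 17 acinar markers had a median of -0.41 with a median SE of 2.28, none with an interval within 2-fold. That sign depended on single libraries and on the fit. Without WT replicate 4 the median was 7.97, and without KO replicate 5 it was -1.74. With all libraries it was 1.82 by limma voom, 1.94 with the replicate block and 3.13 with the lymphoid covariate. It was 1.04 with a white adipocyte covariate, and the other fits of all libraries kept it below 0. The mean log2 CPM of the acinar markers was 6.48 in KO and 4.01 in WT. Red blood cell and platelet genes were above 0 in 8 of 8 cases with a median of 0.97, which was 0.47 without KO replicate 4 and -0.28 without KO replicates 2 to 4 and WT replicate 1. KO replicate 4 held the most Hba-a1, at 71.9 CPM against 9.35 to 31.9 CPM in the other 8. White adipocyte markers had a median of 0.59 over 12 genes, with KO replicate 2 highest at a mean log2 CPM of 7.21 and WT at 5.39 to 6.37; without KO replicate 2 that median was 0.17.

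Set beside sham, the AngII groups can be read only side by side, because the comparisons share libraries. WT AngII against sham called 32 genes (0.183% of those tested), and KO AngII against sham called 80 higher (0.457%) and 44 lower (0.251%). Sphk1 gave 0.70 ± 0.20 in WT AngII against sham, which did not pass (adjusted p = 0.241), and fell by 1.13 ± 0.19 in KO AngII against sham (adjusted p = 0.0227, edgeR). Psrc1 gave 1.04 ± 0.26 in the first and rose by 2.10 ± 0.25 in the second (adjusted p = 0.00587). Cdkn1a gave 0.46 ± 0.17 in the first and rose by 1.17 ± 0.17 in the second (adjusted p = 0.0109). Pbk rose in both, by 2.44 ± 0.28 and 1.86 ± 0.27.

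Whether the deletion acted differently on the 2 vessel beds was tested as an interaction over all 26 libraries, which were treated as independent because the labels do not say which aorta and mesenteric arteries came from 1 mouse. In the aorta 1 of 16863 genes was called between KO and WT under AngII (0.00593%), Sphk1, which fell by 2.90 ± 0.26. No gene of 18520 passed the interaction in edgeR, with 749 at an unadjusted p below 0.05, and DESeq2 called 15, of which 13 were lymphoid or gut and pancreas genes and 2, Acvr1b and Adamts8, were wall genes. Acvr1b, an activin receptor, had the smallest adjusted p in edgeR, 0.705, at -0.50 ± 0.10 for mesenteric minus aortic change. Adamts8, a metalloprotease, gave -1.31 ± 0.31, from -0.38 in mesenteric arteries and 0.93 in the aorta. For Sphk1 the interaction was 1.06 ± 0.34 (unadjusted p = 0.00464, not passing in edgeR after adjustment).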

How the data were processed

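Values were whole-number read counts per Ensembl gene, deposited as 1 table per library. The submitters' processing notes name cutadapt, HISAT2, HTSeq and the build GRCm39; versions, annotation and strand setting are not given in the sources used here. Per the labels' protocols, RNA extraction used a PureLink micro kit with DNase, and a directional NEBNext kit gave paired reads on an Illumina NovaSeq. HTSeq summary lines stayed out of library sizes and tests; 6.635 to 8.704% of records had no feature. A reference table gave symbols for 52081 of 55414 identifiers, and 1090 of 1092 list symbols matched.

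The 13 mesenteric libraries were fitted together in edgeR 4.0.16 (R 4.3.3) with filterByExpr, TMM scaling and the robust quasi-likelihood test. Genes are called at a Benjamini-Hochberg adjusted p below 0.05 over 17513 genes. Errors are SE for log2 values of a comparison and SD for CPM means. A prior count of 2 was used for log2 CPM. A class also needed a slope of at least 0.2 on its marker level. Libraries of a group were not copies of each other (chi-square per degree of freedom of at least 30.6). The members, gene lists and tests were chosen with earlier results of these data known. The rule names Sphk1, up to 12 genes per direction (called, or else without overlap between the groups, by unadjusted p), up to 3 members of each list without a called gene, and for the difference between vessels the genes of smallest adjusted p. The text uses a selection of these. S1pr1, Sphk2, Sgpl1, Spns2, Tagln, Myh11, Acta2 and Mdm2 fall outside the rule and were named for their role after their values were seen. Depth limits precision for counting error only. The methods were run on simulated counts drawn independently for each gene. Those counts held no lymphoid or acinar RNA varying between libraries, so that run does not show how the fits handle it. Alternatives were DESeq2 1.42.0, limma 3.58.1 (voom), other scalings and filters, a replicate block, marker covariates and libraries left out.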

Additional observations from a re-analysis of the deposited data

Results flagged for a closer look

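In 24 of 236 groups tested, 1 library lay far from the others of its group by Dixon's criterion, where chance gives about 12; the groups share libraries and genes, so they are not independent. KO replicate 3 was that library in 8 of them. It was the lowest KO library for Cdkn1a (66.2 CPM), Itpr1 (204 CPM), Trpm4 (26.2 CPM) and Ccn4 (27.3 CPM), and the highest for Sgpl1 (97.1 CPM), Lpar2 (4.38 CPM), Adora2a (11.3 CPM) and the lymphoid share of counts (7.63%). WT replicate 2 was the highest WT library for Spp1 (133 CPM), Kcnq1 (28.3 CPM), Sgms2 (45.8 CPM), Pepd (28.8 CPM) and the share of counts in other genes (0.916%). KO replicate 4 was the highest for interstitial and visceral muscle markers (mean log2 CPM 5.90), pancreatic islet markers (3.52) and the share in other genes (0.933%), and the lowest for endothelial markers (6.80). WT replicate 4 was the lowest for the wall share (84.5%) and the highest for the gut and pancreas share (13.8%) and for pericyte markers (6.12). WT replicate 1 was the lowest for Cat (81.2 CPM) and for erythroid and platelet markers (1.73), WT replicate 3 the highest for Angpt1 (17.4 CPM), and KO replicate 2 the highest for Aldh1l1 (24.7 CPM). The part of these libraries in each result beyond the fits that leave them out was not tested.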

How the results depend on the processing

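Sphk1 kept its direction in all 28 alternatives and its call in 20. It was not called, leaving no gene called lower (0), with library size alone (log2 fold change -1.81, adjusted p = 0.0563 in edgeR), in the fit of only the 9 libraries (-1.82), with both marker covariates (-1.91, adjusted p = 0.159 in edgeR) and without KO replicate 3 and WT AngII replicate 1 together (-1.90, adjusted p = 0.0571 in edgeR). Leaving out each library in turn gave -1.96 to -1.68, 0 or 1 genes called lower, 0 or 1 called higher and 538 to 1369 genes at an unadjusted p below 0.05. Without the 4 libraries whose unaligned share was above 10%, 56 of 17868 genes were called higher and 1376 had an unadjusted p below 0.05. DESeq2 called 1 higher, and 15 for the interaction, against 0 in edgeR.

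Same-numbered WT and KO libraries were not paired by the labels. Their deviations correlated at 0.29, 0.11, -0.26 and 0.16, so the number was not used as a pairing. With the replicate block Sphk1 gave -1.81 (adjusted p = 0.267 in edgeR), and 0 genes were called lower.

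Small values changed sign in some fits, and the cause was not tested. With both marker covariates the values were -0.022 for Lpar2, -0.12 for Sgpl1, -0.22 for Spns2, -0.10 for S1pr1, 0.13 for Col1a1 and 0.052 for Sphk2. With the lymphoid covariate they were -0.036 for Sgpl1, -0.044 for Spns2 and 0.00054 for Col1a1, and with the gut and pancreas covariate 0.0049 for Sphk2. Sphk2 also gave 0.0093 with library size alone, 0.0098 without WT AngII replicate 3 and 0.015 without KO replicate 2. When each library was left out in turn, Sgpl1 ranged from -0.0032 to 0.41, Col1a1 from -0.27 to 0.0049 and Sphk2 from -0.038 to 0.015. Without KO replicate 3, Sgpl1 gave -0.0032 and Col1a1 0.0049, and without it and WT AngII replicate 1 Col1a1 gave 0.0024. S1pr3 gave 0.050 without the 4 libraries whose unaligned share was above 10%. The median of 23 of the 32 biological lists changed sign in at least 1 alternative; the other 9 included the basement membrane, TGF-beta and BMP, Notch and Wnt, and CDK inhibitor and p53 lists. With a correlation limit of 0.5 or 0.8, the lymphoid class held 1336 or 833 genes and the gut and pancreas class 375 or 152. The 9 libraries and a common dispersion of 0.127 limit the precision. The mesenteric wall genes had the lowest median SE of the classes, 0.125, but small changes in them did not pass the test. Cdkn1a, at a log2 fold change of 0.70, had an adjusted p of 0.798 in edgeR.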
